A study of Homo sapiens with 3 samples.

Results

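Long intergenic noncoding RNAs (lincRNAs) are a class of transcripts described as lying between protein-coding genes and carrying no recognised reading frame. The 197 lincRNAs described here are the well-expressed ones of LNCaP, an established, androgen-responsive human prostate cancer cell line. They were chosen from 58884 rows of a raw read count table: autosomal genes of GENCODE 29 type lincRNA whose mean count over the 3 libraries was at least 100. MALAT1, NEAT1, H19, GAS5, ZFAS1, SCHLAP1 and every name starting SNHG, PCGEM or PCAT were left out. Of 7574 lincRNA rows 2888 had a count in some library and 210 reached the minimum, 5 of those on sex chromosomes and 8 removed by name. The type is taken from the annotation, and 48 of the 197 members overlap a coding gene, 12 of them on the same strand. The mean count chose the members, so their levels are given as a description. The rule used no ratio between libraries, but a gene near the minimum can pass through a single library where it is high. Ratios of such a gene are not independent of the choice.

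All 3 libraries came from LNCaP cells grown for 24 h in complete medium and then for 72 h in medium made up with 50% conditioned medium (CM) and 2% fetal bovine serum. The groups were control-CM, PVAT-CM, which the labels call normal, and PPAT-CM, which they call tumor. PPAT is, per the series title, periprostatic adipose tissue, the fat around the prostate, and PVAT is not spelled out in the labels. Where 3 counts are listed without further words, they stand in the order control, PVAT and PPAT. Each medium had 1 library, so no difference could be tested against the spread between cultures, and each statement compares single libraries. Both comparisons with control-CM share the same control library. Messenger RNA libraries were made from total RNA, and assigned counts per library ran from 14174241 to 16965584. Mitochondrial genes took 30.8% of the control-CM counts, 21.1% of the PVAT-CM counts and 15.5% of the PPAT-CM counts. Counts were therefore scaled with TMM factors, and levels are given as scaled CPM, the usual depth-corrected count unit, computed on the TMM-adjusted library size. A ratio is given with a 95% exact conditional binomial interval, which covers counting error only. PCR-amplified reads are not independent molecules, so the true uncertainty is wider.

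LincRNAs are made by RNA polymerase II, usually capped, often spliced inefficiently, and many start at the promoter of a neighbouring coding gene and run away from it. Some such divergent transcripts carry the suffix DT, while others have a clone name, a LINC number or another symbol. Many short or unspliced ones are broken down in the nucleus by the RNA exosome and its adaptors, while a few are stable and have a described task. NORAD binds Pumilio proteins, repressors of messenger RNA stability, and the MIR host genes are the precursor transcripts of microRNAs. CRNDE and PVT1 are commonly raised in tumours, and DRAIC was described in prostate cancer.

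The members were a small share of each library. They held 0.399% of all counts with control-CM and 0.415% with both other media. Of the counts outside the mitochondrial genes they held 0.577%, 0.526% and 0.491% in the same order, so the order of the media depends on whether mitochondrial counts are in the total. Their summed scaled level was 4347 CPM with control-CM, 4129 CPM with PVAT-CM and 3827 CPM with PPAT-CM. The median member had a mean count of 196, and 136 of the 197 lay under 300. The lowest count of any member in any library was 65, so no member was limited by zeros. Just inside the minimum were PURPL, YTHDF3-AS1 and LINC01114 with mean counts of 101, 102 and 102.0, and just outside were AC010864.1, RTCA-AS1 and LINC02315 with 98.7, 99.7 and 99.7.

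By level, the most abundant member was NORAD, with a mean level of 196 CPM. After it came MIR99AHG with 127 CPM, CRNDE with 115 CPM, AC131902.1 with 105 CPM and LINC00665 with 95.7 CPM. The 10 most abundant members held 25.7% of all member counts. Levels can be compared between genes only per length, and per kilobase of exon the order was different. AC131902.1 led with 176 CPM per kb, followed by AC091138.1 with 113, FLJ20021 with 93.4, AL035661.1 with 69.7, AC026979.2 with 62.1 and URB1-AS1 with 57.0. The median member lay at 6.72 CPM per kb, beside 6.59 CPM per kb for protein-coding genes at the same count minimum. That minimum is on counts, so it sets a higher bar per kilobase for shorter genes. The median exonic length was 2186 bases for the members and 5333 for the protein-coding genes. The near-equal levels therefore depend on the filter and do not compare lincRNAs with coding genes at large.

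In PPAT-CM the members were shifted downwards against control-CM. Of the 197, 15 were lower by 2-fold or more and 1 was higher by as much. Over all 10813 genes with a mean count of at least 100, 1.98% were lower by that limit and 3.39% higher, so the balance of the members ran opposite to that of the genes at large. At a 1.5-fold limit 46 members (23.4%) were lower and 9 (4.57%) higher, beside 6.95% and 11.4% of all genes. The counting interval lay below 1 for 95 members and above 1 for 26, beside 29.3% and 37.0% of all genes, and for the other 76 it held 1. The median log2 ratio was -0.22 over the members, 0.05 over 10070 protein-coding genes and 0.08 over the 2943 other genes with a mean count of 100 to 300, which have counting errors like those of the members. The gap between the median of the members and that of all genes was -0.26 on the log2 scale. A scaling factor moves all genes alike, so this gap is fixed by construction, but the counts past a limit are not. With library totals and no TMM 10 members were at least 2-fold lower and 8 at least 2-fold higher, beside 1.03% and 6.78% of all genes, and the median of the members was 0.02.

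Other noncoding gene types stood lower with PPAT-CM as well, to differing degrees. The 217 antisense genes had a median log2 ratio of -0.22 with 25 at least 2-fold lower and 4 higher by as much. The 59 processed transcripts had a median of -0.19, with 2 at least 2-fold lower and 2 higher. The 30 processed pseudogenes had a median of -0.14, with 3 at least 2-fold lower and 0 higher. The 98 transcribed unprocessed pseudogenes had a median of -0.06, with 1 at least 2-fold lower and 3 higher. At 1.5-fold 11.2% of them were lower and 11.2% higher. The lower median was thus shared with antisense genes and processed transcripts, and little with transcribed unprocessed pseudogenes. The 2-fold counts of the processed transcripts were even.

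In PVAT-CM the members stood close to control-CM. No member was higher by 2-fold or more and 1 was lower, beside 0.24% and 0.194% of all genes. At 1.5-fold 1 was higher and 16 were lower, beside 2.49% and 2.3% of all genes. Intervals lay below 1 for 50 members, above 1 for 21 and held 1 for 126, with 21.2% of all genes below 1 and 25.9% above. The median log2 ratio of the members was -0.03. Set directly against PVAT-CM, PPAT-CM had 10 members lower by 2-fold or more and 1 higher, where all genes gave 1.06% and 1.92%. At 1.5-fold 34 were lower and 12 higher, beside 4.8% and 7.5% of all genes, and intervals lay below 1 for 71 and above 1 for 26, beside 26.5% and 32.1%. The median log2 ratio in that comparison was -0.17. Across the 3 libraries, 69 members were highest with control-CM and lowest with PPAT-CM with PVAT-CM between, 29 had the reverse order, 60 were highest with PVAT-CM and 39 lowest there. These orders ignore counting error, although 126 intervals between PVAT-CM and control-CM hold 1. They were not counted over all genes, so they do not show an order particular to the members.

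**Figure D1:**
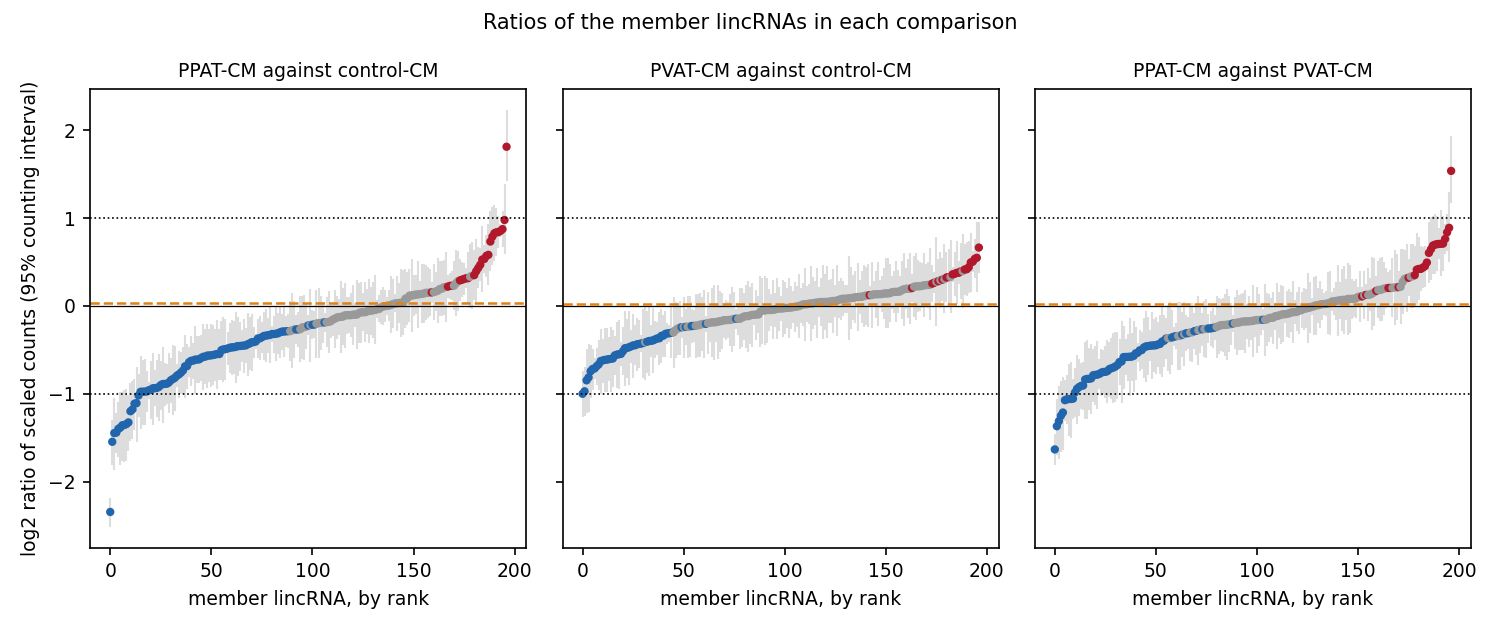
Log2 ratio of scaled counts for each of the 197 member lincRNAs, ranked, in the 3 comparisons; grey bars are 95% counting intervals, blue and red points have intervals below and above 1, dotted lines mark 2-fold and the dashed line is the median of all genes. In PPAT-CM against control-CM 95 points are blue and 26 red, in PVAT-CM against control-CM 50 and 21.

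The member with the largest difference was AC091138.1, also named NETO1-DT, which starts beside the gene of the glutamate receptor auxiliary subunit NETO1 and runs the other way. It lies at chr18:72868388-72881399 on the plus strand (GRCh38) and has up to 3 exons. It had 1523 counts with control-CM, 874 with PVAT-CM and 363 with PPAT-CM, or 100 CPM, 61.3 CPM and 19.7 CPM. The library order was clear at each step: PVAT-CM was 1.64-fold lower than control-CM (1.51 to 1.78) and PPAT-CM was 5.09-fold lower (4.53 to 5.72). NETO1, whose 5′ end lies 242 bases away, had 4536, 2670 and 2372 counts, a log2 ratio of -1.21 in PPAT-CM against control-CM. Both transcripts of that promoter were therefore lower, the noncoding one by more.

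Several further members were lower with PPAT-CM and stood between with PVAT-CM. GS1-124K5.4, also named LINC03011, had 437, 278 and 181 counts with control-CM, PVAT-CM and PPAT-CM, 2.93-fold lower with PPAT-CM (2.46 to 3.50). LINC01977 had 165, 88 and 73 counts, 2.74-fold lower (2.07 to 3.66). AL157373.2, which overlaps the gene of the transcription factor HIVEP1 on the same strand, had 158, 101 and 73 counts, while HIVEP1 had 218, 219 and 332, so these overlapping genes stood on opposite sides of 1. Counting was not stated to use strand, and reads of overlapping genes may not be separated. LINC02447, ZNF426-DT and LINC01666 were 2.30-fold, 2.27-fold and 2.51-fold lower. LINC01666 lies in the duplicated part of chromosome 21, and its count is uncertain because near-identical copies may share its reads.

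A second set was lower with PPAT-CM and, apart from AC026979.2, nearly level between control-CM and PVAT-CM. ELFN1-AS1, a transcript described in colon cancer, had 275 counts with control-CM, 253 with PVAT-CM and 126 with PPAT-CM. Its ratio of PPAT-CM to PVAT-CM was 0.386 (0.309 to 0.480), and its ratio of PVAT-CM to control-CM was 0.979 with an interval that holds 1. LINC02482 had 172, 150 and 81 counts and AC063948.1 had 162, 139 and 77, 2.39-fold and 2.33-fold lower with PPAT-CM than with PVAT-CM. AC144652.1, also named INSIG1-DT, had 159, 145 and 75 counts, 2.57-fold lower with PPAT-CM than with control-CM (1.94 to 3.43). Its partner INSIG1, a sterol sensor that holds back cholesterol synthesis, had 765, 961 and 1017 counts, so the coding side of that promoter was not lower. AC104986.2 (VPS13B-DT) had 132, 120 and 74 counts, AC007114.1 (AKAP1-DT) 273, 287 and 177, AC099522.2 (BTF3-DT) 130, 133 and 82, and AC091271.1 407, 405 and 251. AC026979.2 (DCTN6-DT), with 532, 387 and 237 counts, was also lower than control-CM with PVAT-CM. These 5 were at least 2-fold lower with PPAT-CM than with PVAT-CM, and each starts head to head with a coding gene whose log2 ratio between PPAT-CM and control-CM lay between -0.34 and 0.17.

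Only AL161910.1 was at least 2-fold higher with PPAT-CM than with control-CM. It had 65 counts with control-CM, 74 with PVAT-CM and 278 with PPAT-CM, 3.53-fold higher (2.68 to 4.70). It starts 326 bases from GADD45G, a stress-induced growth arrest gene, and runs away from it. GADD45G had 1201, 1052 and 4082 counts, 2.80-fold higher with PPAT-CM (2.63 to 2.99) and slightly lower with PVAT-CM. Both sides of that promoter were thus high in the same library.

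NORAD, the most abundant member, was higher with PPAT-CM. It had 2184 counts with control-CM, 2634 with PVAT-CM and 4785 with PPAT-CM, or 144 CPM, 185 CPM and 260 CPM. PVAT-CM was 1.28-fold higher than control-CM (1.21 to 1.36), PPAT-CM was 1.81-fold higher (1.72 to 1.90) and PPAT-CM was 1.41-fold higher than PVAT-CM (1.34 to 1.48). Without NORAD the other 11 members with a mean count of at least 1000 gave no ratio at or past 1.5-fold upwards, and AC131902.1 was the 1 past it downwards, with 2108, 1472 and 1313 counts.

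The feature NORAD is known for is readable in its sequence. Its transcript is a single exon of 5339 bases, at chr20:36045622-36050960 on the minus strand. A search of every member's longest annotated transcript for the Pumilio element TGTANATA, on the transcript's strand only, found 15 in NORAD, or 2.81 per kb. The next highest count was 4, in 9011 bases of DRAIC, or 0.444 per kb. Per length AC063948.1 came close to NORAD, with 2.64 per kb, from 1 element in 379 bases. Of the 197 members 170 had none. The following windows from NORAD, named by the position of the element from the transcript's 5′ end, show 5 of the 15 with the element in capitals, because they show the repeated element and how close neighbouring copies can lie.
position 761: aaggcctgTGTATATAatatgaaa
position 1140: cactactgTGTATATAgttgacaa
position 1442: cttatctgTGTATATAgtgtacat
position 1451: gtatatagTGTACATAaaggacag
position 1825: taccacttTGTAAATAtctttttg
The elements at 1442 and 1451 start 9 bases apart, and so do 2 further pairs. A match to the letters is a description of the sequence and does not show binding in these cells.

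Genes of Pumilio and other RNA-binding partners of NORAD did not all stand on its side. PUM2, a Pumilio protein gene, had 1439, 1274 and 1510 counts, a log2 ratio of -0.21 in PPAT-CM against control-CM. RBMX, a nuclear RNA-binding protein reported to bind NORAD, had 1380, 1775 and 2961 counts, 1.77-fold higher (1.66 to 1.89). KHDRBS1 (Sam68) had 1957, 2375 and 2997 counts, 1.26-fold higher. NANOS1, a Pumilio cofactor, had 144, 142 and 101, 1.73-fold lower. Of the 5 genes of that list, RBMX alone was higher by 1.5-fold or more and NANOS1 alone was lower by as much.

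A further 6 members with intervals above 1 formed the upper end with PPAT-CM. Z97192.2 had 76, 76 and 182 counts with control-CM, PVAT-CM and PPAT-CM, 1.98-fold higher than control-CM (1.5 to 2.62). AC090114.2 (LINC03072) had 277, 267 and 616 counts and LINC02197 had 374, 386 and 812, 1.83-fold and 1.79-fold higher. SCAMP1-AS1 had 164, 206 and 356 counts, 1.79-fold higher, while SCAMP1, 76 bases away, had 1554, 1613 and 1571. LINC01770 had 123, 126 and 265 counts, 1.78-fold higher, beside 1665, 1945 and 5833 for VWA1, a matrix protein gene that starts 288 bases away. AC091179.1 had 112, 113 and 235 counts, 1.73-fold higher, and HOXB13, the prostate homeobox gene 3913 bases away, had 5974, 5259 and 6940, a log2 ratio of -0.06. Apart from SCAMP1-AS1, these members were level between control-CM and PVAT-CM: their intervals in that comparison hold 1.

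**Figure D2:**
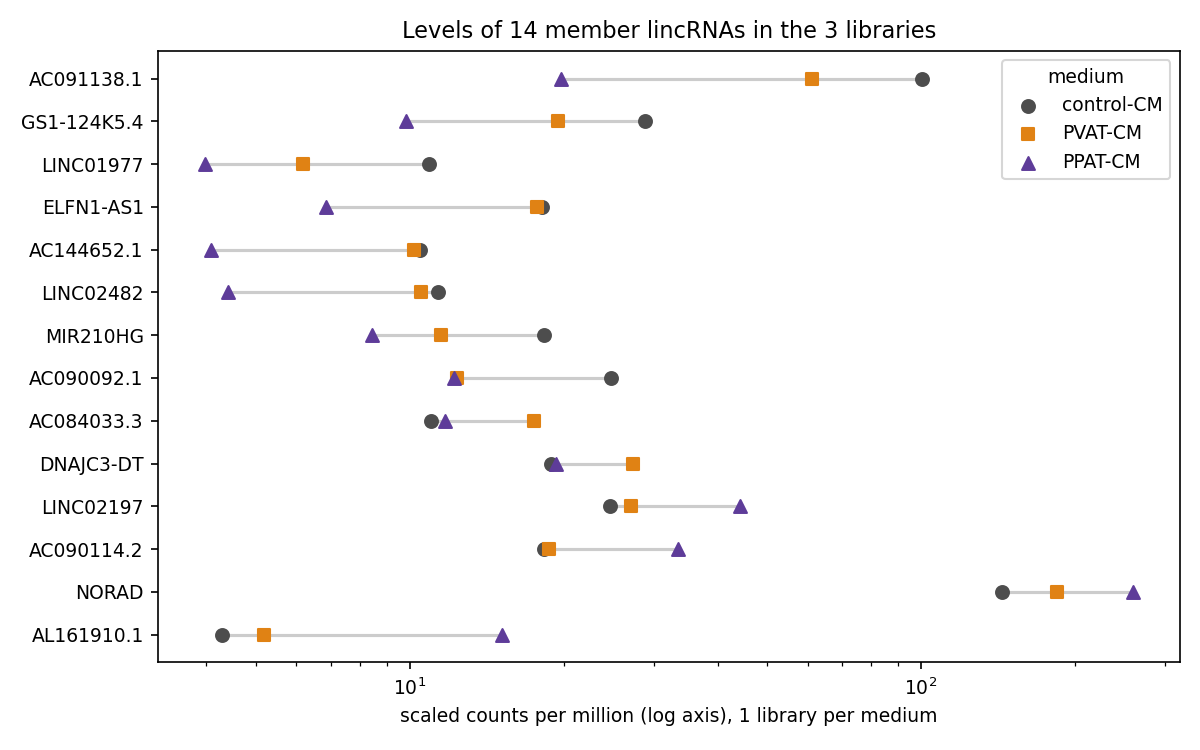
Level of 14 named member lincRNAs in the 3 libraries, in scaled CPM on a log axis, 1 point per medium. PPAT-CM is lowest for the 8 members from AC091138.1 to AC090092.1 and highest for the lowest 4 on the plot, among them NORAD at 260 CPM.

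Some members stood apart from control-CM already with PVAT-CM, several of them as far or farther with PPAT-CM. AC090092.1 (LINC02718) had 375 counts with control-CM, 176 with PVAT-CM and 224 with PPAT-CM, a ratio of 0.499 with PVAT-CM (0.415 to 0.599) and 0.493 with PPAT-CM. AL390719.2 had 328, 157 and 221 counts and AC026471.4 had 186, 97 and 123, so both were low in both media. BMPR1B-DT had 512, 299 and 324 counts, 1.61-fold lower with PVAT-CM (1.39 to 1.86) and 1.92-fold lower with PPAT-CM (1.66 to 2.21). C10orf91 had 422, 241 and 425 counts and was low with PVAT-CM, with a ratio of 0.608 (0.516 to 0.713), while with PPAT-CM it was 0.831. On the other side AC084033.3 (GIHCG) had 167, 249 and 215 counts, 1.59-fold higher with PVAT-CM (1.30 to 1.94), and was the single member at least 1.5-fold higher there. DNAJC3-DT had 286, 390 and 355 counts, 1.45-fold higher. UBAC2-AS1 had 93, 128 and 93 counts. AL135910.1, AC092171.3 and AC055713.1 (TMED2-DT) were 1.41-fold, 1.36-fold and 1.33-fold higher with PVAT-CM. DNAJC3, which encodes an endoplasmic reticulum chaperone, had 684, 923 and 928 counts, and TMED2, a cargo receptor of the early secretory pathway, had 1753, 2648 and 3801. Both were thus higher than control-CM with PVAT-CM together with the noncoding transcript that starts beside them, although AC055713.1 overlaps TMED2 and may share reads with it. The members highest with PPAT-CM relative to PVAT-CM also included LINC01667 with 537, 431 and 943 counts, which lies in duplicated sequence of chromosome 21 and is uncertain, AC012313.1 with 187, 126 and 266, and LINC01315 with 142, 91 and 192.

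Members that start near a coding gene on the other strand gave a comparison that the rule did not use. Pairs that overlap were not left out, and their reads may be shared because counting was not stated to use strand. Of the 197 members 75 start within 1000 bases of the 5′ end of a coding gene on the opposite strand, and 73 of those partners had a mean count of at least 100. In PPAT-CM against control-CM the lincRNA had the lower log2 ratio of the pair in 53 of 73. The median was -0.21 for the lincRNAs and 0.07 for their partners, and the median difference within a pair was -0.35. These medians lie near those of all members (-0.22) and of all protein-coding genes (0.05). Pairs were not set against unpaired genes, so the count of 53 does not show a trait of shared starts. In 29 pairs the lincRNA was lower than control-CM and the partner higher, in 11 the reverse, and 33 had the same sign. Over the 73 pairs, which share the libraries and their scaling, Pearson's r was 0.37 and Spearman's rho was 0.08. Pairs with large ratios of the same sign were AL161910.1 with GADD45G and AC091138.1 with NETO1. In PVAT-CM against control-CM the lincRNA was the lower in 46 of 73 pairs, 48 pairs had the same sign, and the medians were 0.01 and 0.05. In PPAT-CM against PVAT-CM it was the lower in 52.

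Pairs that parted show what the counts look like. BMPR1B, a bone morphogenetic protein receptor, had 559, 634 and 1103 counts, 1.63-fold higher with PPAT-CM than with control-CM (1.47 to 1.81), where BMPR1B-DT was 1.92-fold lower. GMDS, an enzyme of GDP-fucose synthesis, had 207, 239 and 676 counts, 2.69-fold higher (2.30 to 3.16), while GMDS-DT had 148, 136 and 199, with an interval that holds 1. Members without such a partner had a median log2 ratio of -0.24 with PPAT-CM, beside -0.21 for the 75 that have one. The shift was thus not limited to members with a head-to-head partner.

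**Figure D3:**
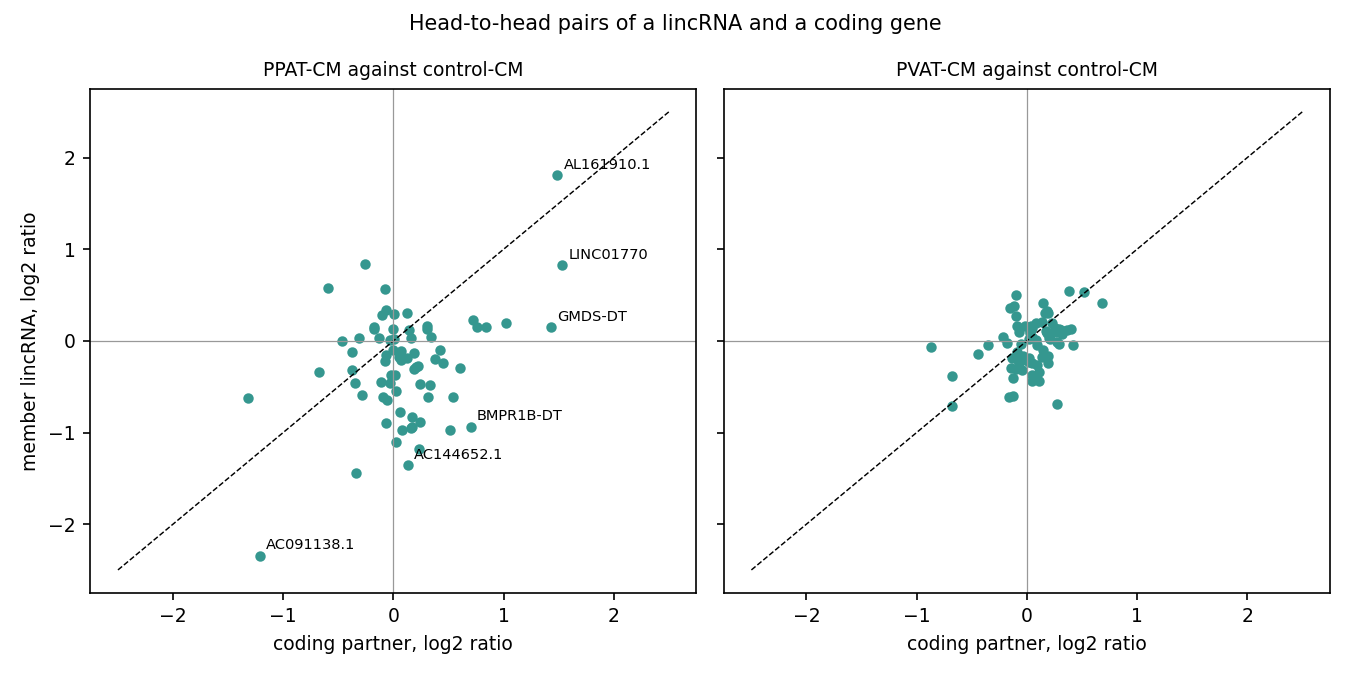
Log2 ratio of the 73 head-to-head lincRNAs (y axis) against that of their coding partners (x axis), in PPAT-CM against control-CM and in PVAT-CM against control-CM; the dashed line marks equal ratios. In the left panel 53 of 73 points lie below the line.

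Promoter sequence was available for 100 members in the RefSeq table (GRCh38.p14), as 250 bases before to 50 bases after the annotated start. Their median GC content was 67.0%, beside 58.3% for all 35116 promoters of that table. The motif CCAAT was present on either strand in 47.0% of them and in 34.6% of all, GGGCGG in 65.0% and 45.0%, CCGGAAG in 23% and 10.3%, TATAAA in 6.0% and 11.5%, CACGTG in 9.0% and 7.26%, and TGANTCA in 2.0% and 7.71%. TGACGTCA was found in 4.0% and 1.85%, TGATGNAA in 3.0% and 3.62%, and AGAACA in 10.0% and 14.8%. No motif of that list holds another. Below are the windows of NETO1-DT, where both transcripts of the pair were lower with PPAT-CM, and INSIG1-DT, where the noncoding one alone was lower, with the matches in capitals on either strand. The first is chr18:72868138-72868437 on the plus strand and the second chr7:155297609-155297908 on the minus strand.
NETO1-DT: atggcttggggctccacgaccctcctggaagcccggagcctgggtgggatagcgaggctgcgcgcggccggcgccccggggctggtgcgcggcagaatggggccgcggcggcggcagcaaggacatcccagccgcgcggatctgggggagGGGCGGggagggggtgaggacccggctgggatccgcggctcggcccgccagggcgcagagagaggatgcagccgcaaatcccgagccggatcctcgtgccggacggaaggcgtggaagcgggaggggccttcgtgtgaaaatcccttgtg
INSIG1-DT: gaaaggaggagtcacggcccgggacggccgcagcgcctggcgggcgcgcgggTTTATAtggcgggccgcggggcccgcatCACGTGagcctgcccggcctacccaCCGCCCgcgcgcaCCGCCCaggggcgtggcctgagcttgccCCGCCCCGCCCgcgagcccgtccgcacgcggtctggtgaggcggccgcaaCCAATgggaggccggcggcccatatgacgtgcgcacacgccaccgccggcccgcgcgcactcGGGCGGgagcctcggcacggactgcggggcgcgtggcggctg
The first window holds GGGCGG alone. The second holds GGGCGG, the E-box CACGTG, the box CCAAT and the reverse complement of the TATA motif. A match does not show binding, and a missing match says only that these letters are not in this window.

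Length went with the ratio. The 43 members with an exonic length under 1000 bases had a median log2 ratio of -0.61 in PPAT-CM against control-CM, and 10 of them were at least 2-fold lower. Of all 182 other genes under 1000 bases with the same count minimum, 39 (21.4%) were lower by as much, a share near the 23.3% of the members, and their median was -0.25. The 83 members of 1000 to 3000 bases had a median of -0.24 with 4 at least 2-fold lower, and the 71 members of 3000 bases or more a median of -0.08 with 1. Those counts are 4.82% and 1.41% of the members, beside 2.28% and 1.36% of the other genes of the same lengths. Spearman's rho between exonic length and log2 ratio was 0.36 over the 197 members and -0.10 over the 10070 protein-coding genes, which share the same libraries. With GC content it was 0.02 over the members. Short genes of other types were lower too: 10 of 37 antisense genes under 1000 bases were at least 2-fold lower, with a median of -0.52, and 13 of 77 protein-coding genes, with a median of -0.13. Mitochondrial genes were not left out of the other genes or of the protein-coding genes. Their share of the counts was 30.8% with control-CM and 15.5% with PPAT-CM. How far they weigh in the shares of short genes was not tested. In PVAT-CM against control-CM the medians of the members in the same order of length were -0.15, -0.02 and 0.01. The part that transcript length plays in the ratios of single members was not tested.

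**Figure D4:**
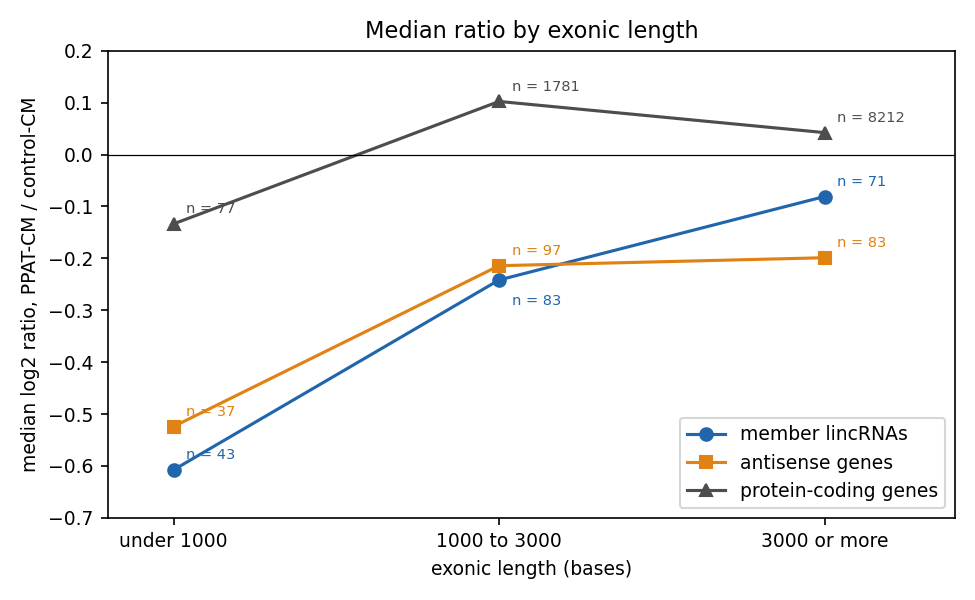
Median log2 ratio of PPAT-CM to control-CM (y axis) in bins of exonic length in bases (x axis), for member lincRNAs, antisense genes and protein-coding genes with a mean count of at least 100; n is the number of genes in the bin. The members run from -0.61 in the shortest bin to -0.08 in the longest.

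The nuclear exosome and its adaptors, which break down many intergenic transcripts, were examined as a list of 23 detected genes with a mean count of at least 100. In PPAT-CM against control-CM 1 was higher by 1.5-fold or more and 1 lower, beside 11.4% and 6.95% of all genes. The higher one was RBM7, an RNA-binding adaptor of the nuclear exosome targeting complex, with 179 counts with control-CM, 165 with PVAT-CM and 518 with PPAT-CM, 2.39-fold higher (2.01 to 2.85). Its complex partner ZCCHC8 had 1182, 985 and 1033 counts, a log2 ratio of -0.47, and the helicase gene MTREX had 638, 669 and 781, a ratio of 1.01. The lower one was the core subunit gene EXOSC9, with 369, 287 and 278 counts. The median log2 ratio of the list was 0.07. Whether these levels bear on the members was not tested.

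All 8 members named as MIR hosts had log2 ratios below 0 in PPAT-CM against control-CM, with a median of -0.43, beside -0.22 over all members, and 6 of 8 intervals lay below 1. Of all members 137 of 197 were below 0 and 48.2% had an interval below 1, and of all genes 46.2% and 29.3%. In PVAT-CM 7 of the 8 were below 0, with a median of -0.53, where the median of all members was -0.03, and again 6 intervals lay below 1, beside 25.4% of the members and 21.2% of all genes. The control library is the same in both comparisons, so the hosts that are low in both are not 2 separate observations. The group is set by name and leaves out other members that hold microRNAs, namely PVT1, LINC00472 and MUC20-OT1. PVT1 and LINC00472 are described below. The libraries measure the long host transcript, not the mature microRNA.

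The mature microRNAs made from these hosts are shown in seed groups, since bases 2 to 8, in capitals, set which messages a microRNA can pair with. Sequences are from RefSeq (GRCh38.p14).
miR-210-3p (MIR210HG): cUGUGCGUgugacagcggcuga
miR-29b-3p (MIR29B2CHG): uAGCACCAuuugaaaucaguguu
miR-29c-3p (MIR29B2CHG): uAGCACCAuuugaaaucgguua
miR-200c-3p (MIR200CHG): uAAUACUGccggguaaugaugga
miR-141-3p (MIR200CHG): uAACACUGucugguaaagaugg
miR-34a-5p (MIR34AHG): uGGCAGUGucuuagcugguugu
miR-99a-5p (MIR99AHG): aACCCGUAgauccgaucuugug
let-7c-5p (MIR99AHG): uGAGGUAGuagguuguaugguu
let-7a-5p (MIRLET7BHG): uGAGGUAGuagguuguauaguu
let-7b-5p (MIRLET7BHG): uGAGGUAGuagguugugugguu
The 3 let-7 microRNAs shown lie in 2 hosts on different chromosomes and share the seed GAGGUAG, and miR-29b and miR-29c share AGCACCA. Only the members were searched, so other genes may make the same mature microRNAs. MIR99AHG also holds miR-125b-2, MIR22HG holds miR-22 and MIR4458HG holds miR-4458.

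MIR210HG, host of the hypoxia microRNA miR-210, had 277 counts with control-CM, 164 with PVAT-CM and 155 with PPAT-CM. It was 1.59-fold lower with PVAT-CM (1.30 to 1.94) and 2.17-fold lower with PPAT-CM (1.77 to 2.65). MIR29B2CHG had 352, 215 and 252 counts, 1.54-fold and 1.69-fold lower. These hosts, and MIR34AHG with 555, 379 and 491 counts, were low in both media.
MIR200CHG, host of the epithelial microRNAs miR-200c and miR-141, had an interval below 1 with PPAT-CM and not with PVAT-CM. It had 300, 273 and 226 counts, level with PVAT-CM with a ratio of 0.968 (0.819 to 1.14) and 1.61-fold lower with PPAT-CM (1.35 to 1.92). MIR22HG and MIRLET7BHG were lowest with PVAT-CM, with 168, 103 and 178 counts and with 208, 129 and 206 counts. MIR99AHG, the second most abundant member, had 2210, 1803 and 2024 counts, a ratio of 0.868 with PVAT-CM (0.815 to 0.924) and 0.755 with PPAT-CM (0.711 to 0.803). MIR4458HG had 255, 256 and 263 counts, and both of its intervals against control-CM hold 1.
Of 10 genes that process microRNAs, among them DROSHA, DICER1 and AGO2, 0 were 1.5-fold higher or lower with PPAT-CM, beside 11.4% and 6.95% of all genes, and their median log2 ratio was 0.01. Whether their levels bear on the hosts was not tested.

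**Figure D5:**
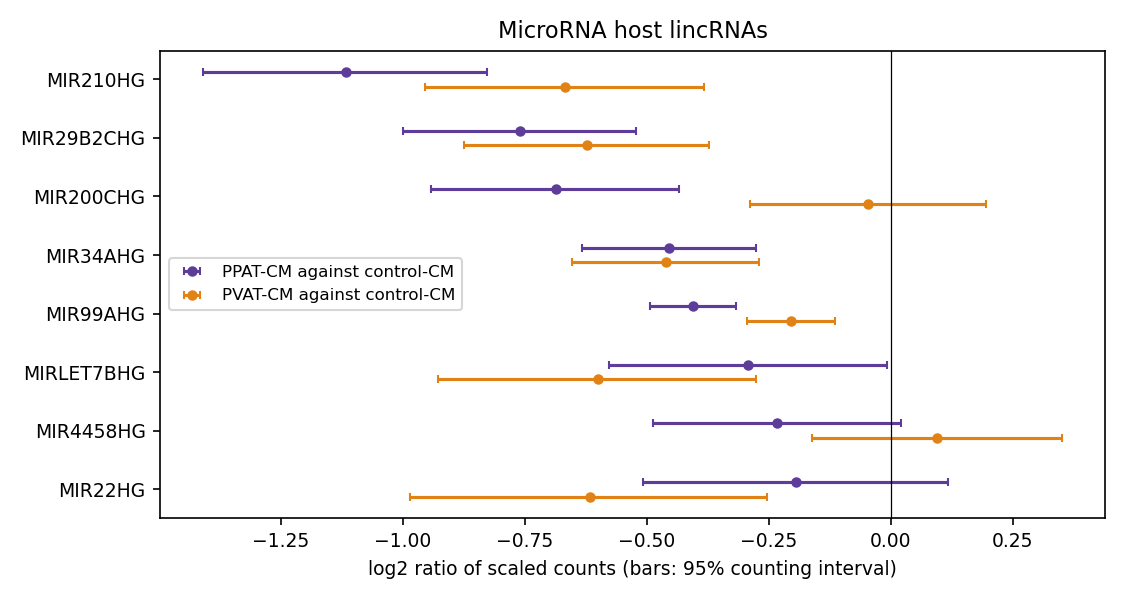
Log2 ratio (x axis) of the 8 lincRNAs named as microRNA hosts with PPAT-CM and with PVAT-CM against the shared control-CM library, with 95% counting intervals. All 8 PPAT-CM points lie below 0, and MIR4458HG is the single host above 0 with PVAT-CM.

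LINC02001 and EPB41L4A-AS1 are hosts of small nucleolar RNAs, which guide the chemical modification of other RNAs. LINC02001, which holds SNORD7 and is now named SNHG30, was kept because the rule used GENCODE 29 names. It had 552, 469 and 503 counts, a ratio of 0.752 with PPAT-CM (0.665 to 0.850). EPB41L4A-AS1, which holds SNORA13, had 363, 407 and 609 counts, a ratio of 1.38 with PPAT-CM (1.21 to 1.58). They stood on opposite sides of control-CM.

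Members with a described response to stress or to p53 were few. The p53-linked ones were MIR34AHG, TP53TG1 and PURPL. TP53TG1 had 280, 294 and 225 counts, 1.51-fold lower with PPAT-CM (1.26 to 1.81), and PURPL, which restrains p53 levels, had 118, 107 and 77, 1.86-fold lower (1.38 to 2.51). All 3 had intervals below 1 with PPAT-CM, as did 48.2% of all members and 29.3% of all genes. With PVAT-CM the interval lay below 1 for MIR34AHG. Among the stress and hypoxia list NORAD and EPB41L4A-AS1 were higher with PPAT-CM, MIR210HG and CRNDE lower, and LINC01003, with 597, 578 and 624 counts, had a ratio of 0.862 (0.769 to 0.966). CRNDE had 2008, 1522 and 1950 counts, with ratios of 0.806 with PVAT-CM and 0.801 with PPAT-CM. The list thus had no common direction.

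The list of widely expressed long noncoding RNAs with described functions had 13 genes with a mean count of at least 100, 8 of them members. In PPAT-CM against control-CM 2 of the 13 were at least 1.5-fold higher, beside 11.4% of all genes, and 2 at least 1.5-fold lower, beside 6.95%. The higher ones were NORAD, described above, and LINC00511, a processed transcript that is no member, with 37, 41 and 727 counts, 16.2-fold higher (11.6 to 23.2). The lower ones, DANCR and DLEU1, are no members either. LINC00665, among the 5 most abundant members, had 1401, 1434 and 1733 counts, with a PPAT-CM ratio of 1.02 (0.95 to 1.10). LINC00467 had 637, 634 and 754 counts, LINC00662 had 467, 489 and 565, and LINC00472 had 147, 119 and 161, each with PPAT-CM intervals that hold 1. PVT1, the neighbour of the oncogene MYC, had 1253, 948 and 1334 counts, a ratio of 0.878 (0.812 to 0.949), while MYC had 1800, 1987 and 3905, a log2 ratio of 0.84. LINC01133 had 400, 381 and 396 counts, a ratio of 0.817 (0.709 to 0.941). Among prostate-linked lincRNAs the single member was DRAIC, with 244, 211 and 275 counts and a PPAT-CM ratio of 0.930 (0.780 to 1.11), which holds 1. Among those induced by inflammatory signals the single member was MIR22HG, described with the hosts above.

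The labelled cell type was checked against its markers. All 9 markers of LNCaP and luminal prostate cells were detected in every library, but all 9 had log2 ratios below 0 in PPAT-CM against control-CM, with a median of -0.48. Of the 9, 4 were at least 2-fold lower, among them the androgen-regulated genes KLK3, KLK2 and TMPRSS2, beside 1.98% of all genes. Markers of other cells were low apart from COL1A1. ADIPOQ, FABP4 and LEP of adipocytes, PTPRC, CD3E and MS4A1 of leukocytes, COL1A2 and DCN of fibroblasts and CDH5 of endothelium were at 0 counts in all 3 libraries. The 5 adipocyte markers summed to 13, 27 and 90 counts with control-CM, PVAT-CM and PPAT-CM, of which PLIN1 held 13, 27 and 89. The fibroblast markers summed to 723, 329 and 482, of which COL1A1 held 718, 323 and 478. The log2 ratio of COL1A1 against control-CM was -1.06 with PVAT-CM, where 0.194% of all genes were at least 2-fold lower, and -0.86 with PPAT-CM. The leukocyte markers summed to 8, 12 and 10 and the endothelial markers to 27, 16 and 35. In such bulk libraries fewer cells of a type and less RNA per cell cannot be told apart. The falling mitochondrial share and the lower androgen-regulated genes went with the members' shift with PPAT-CM, and their part in it was not tested.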

How the data were processed

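RNA from 3 LNCaP cultures, 1 per medium, was sequenced. Per the submitters' processing notes, FastQC, Trimmomatic, HISAT2, featureCounts and edgeR were used with build GRCh38; versions, roles and strand setting were not stated. The deposited values are raw read counts per gene. Gene types and exons came from GENCODE 29, in which 58611 of 58884 rows were found; 273 rows were not.

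TMM factors (edgeR 4.0.16, R 4.3.3, all rows) were 0.917, 1.01 and 1.08 for control-CM, PVAT-CM and PPAT-CM. Log2 ratios used a pseudocount of 0.5. With 1 library per medium no test was possible; calls are folds past 2, read beside all genes with a mean count of at least 100. Intervals were computed with scipy 1.17.1, and the code was tested on simulated data.

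Named members are, per comparison, the 8 highest and 8 lowest ratios with an interval excluding 1, then the most abundant, every member on a list, clusters, neighbours and the count edge. Members and lists were chosen with earlier results of these data known. Members just named for other reasons (further 2-fold calls, head-to-head examples, SNORD7 and SNORA13 hosts) were chosen after their values were seen. Scalings, count minimum, pseudocount, fold limit and overlap with coding genes were varied. A few genes that these rules name are not reported here.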

Additional observations from a re-analysis of the deposited data

How the results depend on the processing

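No paired analysis was possible because each medium had 1 library, and for the same reason no library could be left out. Library totals without TMM moved the median of all genes by 0.24 on the log2 scale in PPAT-CM against control-CM, 0.13 in PVAT-CM against control-CM and 0.11 in PPAT-CM against PVAT-CM. With that setting the medians of the members in the first 2 comparisons changed sign, to 0.0187 and 0.104, 8 members were at least 2-fold higher in PPAT-CM than in control-CM, 0 were at least 2-fold lower in PVAT-CM and 5 were lower between PPAT-CM and PVAT-CM. The other 4 scalings left every count of 2-fold calls within 1.5 times and every median on its side of 0. Of 1098 values for 61 named members under 6 settings, 1054 stayed inside their counting intervals and 40 moved outside, all with library totals. The other 4 changed sign there, in PPAT-CM against control-CM: FLJ20021 to 0.0187, LINC01003 to 0.0267, PVT1 to 0.0532 and URB1-AS1 to 0.0287.

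Other count minimums change how many genes are members. A minimum of 50 (325 genes) gave 5 higher and 31 lower in PPAT-CM against control-CM, 2 and 3 in PVAT-CM against control-CM, and 4 and 21 in PPAT-CM against PVAT-CM. A minimum of 200 (94 genes) gave 0 and 5 in the first comparison and 0 and 5 in the last. A minimum of 1 (2066 genes) gave 310 and 502, 314 and 427, and 353 and 427, mostly genes of few counts. Shares over all genes were not computed at minimums of 50, 200 and 1. The counts at those minimums therefore do not show a rate particular to lincRNAs. A 1.5-fold limit gave 9 and 46, 1 and 16, and 12 and 34. A 3-fold limit gave 1 higher and 1 lower in PPAT-CM against control-CM, beside 0.999% and 0.305% of all genes, so the members were even there. In PVAT-CM against control-CM it gave 0 and 0, beside 0.0647% and 0.0185%. In PPAT-CM against PVAT-CM it gave 0 higher and 1 lower, beside 0.629% and 0.176%. A pseudocount of 5 left 0 lower in PVAT-CM, since AC090092.1 lies on the limit. Leaving out members that overlap a coding gene left 6 of 149 lower in PPAT-CM against PVAT-CM. With raw counts mostly under 300, differences under about 1.5-fold are often within counting error.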

Other observations

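Of the 197 members 23 lie in 11 clusters within 100 kb of another member, and neighbours did not always stand together. MIR34AHG and LNCTAM34A overlap on opposite strands. In the order control, PVAT and PPAT, MIR34AHG had 555, 379 and 491 counts, while LNCTAM34A had 143, 154 and 175, with a PPAT-CM ratio of 1.01 (0.805 to 1.27) beside 0.730 (0.645 to 0.825) for MIR34AHG. MIR99AHG and AP001172.1, which lies inside it on the other strand, had near-equal PPAT-CM ratios of 0.755 and 0.731. Since the counting was not stated to use strand, reads of such pairs cannot be assigned to a strand with certainty. The 3 neighbours AC005332.6, AC005332.5 and AC005332.4 on chromosome 17 had PPAT-CM ratios of 0.819, 0.668 and 0.705, all with intervals below 1. AL118558.3 and AL118558.4 lie on 1 strand of chromosome 14 and had ratios of 1.15 and 0.723, the first with an interval that holds 1.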
